A study of Mus musculus with 5 samples.

Results

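Cartilage-like cells of the atherosclerotic aortic arch were examined in single-cell RNA sequencing of 5 mouse libraries. A cell was counted as cartilage-like when at least 2 of the 3 cartilage genes Col2a1, Acan and Chad had a UMI (1 captured RNA molecule, counted once), while Ptprc, the pan-leukocyte marker, and Cdh5, the endothelial cadherin, had none. This rule gave 146 of 18260 cells. The cells came from the aortic root and curvature of mice lacking Apoe, the lipoprotein ligand whose loss raises plasma cholesterol, after 28 weeks of normal chow. The labels gave 2 libraries from Apoe-/- mice with intact Oasl1 and 3 from Oasl1-/-Apoe-/- mice, in which the promoter and exon 2 of Oasl1 had been deleted. Both groups lacked Apoe, so no library came from a mouse without the atherosclerosis-prone genotype. Mice were pooled (6 by the design text, without saying whether per group or per library), tissue was digested with enzymes, and live cells were sorted. Because the labels do not say whether libraries of a group came from separate pools, p-values measure the spread between libraries, which may be technical.

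Hyaline cartilage is built by chondrocytes under control of the transcription factor SOX9. They secrete type II collagen, with the minor types IX and XI on and in the same fibrils, and fill the mesh with aggrecan, a sulfated proteoglycan held on hyaluronan by link protein. Chondrocytes that mature toward bone switch on type X collagen and mineral-binding proteins such as bone sialoprotein and osteopontin. Advanced lesions of Apoe-deficient mice are known to hold cartilage-like (chondroid) areas, and lineage tracing has placed chondrocyte-like cells among the descendants of arterial smooth muscle.

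Library depth was similar, with 3212 to 4338 cells and a median of 4495 to 5186.5 UMIs per cell. Of 18094 distinct cell barcodes 165 occurred in more than 1 library, and 4 cartilage-like cells carried such a barcode. Oasl1 itself gave 27 and 16 UMIs over all cells of the Apoe-/- libraries and 299, 257 and 315 in the libraries labelled Oasl1-/-Apoe-/-. This direction is the reverse of what the labels name. Where in the gene these UMIs lie was not examined, and whether the deleted allele can still give them was not tested. Apoe gave 233 to 278 UMIs in every library. Groups are therefore named by their labels throughout, and no direction below is read as an effect of Oasl1 loss.

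Col2a1 (chromosome 15, 97975602 to 98004695, minus strand, mm10), which encodes the type II collagen chain, was present in 98.6% of the cartilage-like cells. Acan (aggrecan, chromosome 7, 79053483 to 79115099, plus strand) was present in 97.9% and Chad (chondroadherin, a cell-binding matrix protein, chromosome 11, 94565047 to 94569127, plus strand) in 42.5%. These 3 genes chose the cells, so their values are a description only. The combination of all 3 occurred in 57 cells, Col2a1 with Acan alone in 84, Col2a1 with Chad in 3 and Acan with Chad in 2. Levels are given as CP10K, the UMIs of a gene per 10000 UMIs of a cell, averaged over the cells of a library. Col2a1 was at 90.6 and 107 CP10K in the cartilage-like cells of the Apoe-/- libraries and at 119, 191 and 141 in those labelled Oasl1-/-Apoe-/-. In a single cell it made up a median of 0.652% and at most 7.32% of all UMIs, and 60 cells gave at least 1% of their UMIs to this gene.

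The rule genes summed to a median of 65 UMIs per cell (quartiles 14.25 and 219, range 2 to 847). Just inside the rule lay 12 cells with 2 or 3 such UMIs. In the 25 cells with under 10, Comp averaged 4 CP10K, Col9a1 0 and Acta2 26.3. In the 121 cells with at least 10, Comp averaged 25.3, Col9a1 3.68 and Acta2 2.58. Just outside lay 715 cells with a single rule gene, of which 519 had Acan, 163 Col2a1 and 33 Chad, and in which Comp averaged 1.32, Col9a1 0.00328 and Acta2 151 CP10K. A further 7 cells had 2 or more rule genes but also a UMI of Ptprc (3 cells) or Cdh5 (4 cells). Members with few rule gene UMIs therefore lay between the other members and the cells with 1 rule gene in Comp and Acta2. A Col2a1 UMI was found in 1.73% of 2542 cells with a Ptprc UMI (median 5307 UMIs). It was found in 1.27% of 1100 cells with a Cdh5 UMI (median 3713.5 UMIs). The cartilage-like cells had a median of 8221 UMIs. The 7 cells above belong to these sets, and whether free RNA or mixed droplets gave the UMIs was not tested. These shares pool all libraries. Cells with Col2a1 as the only rule gene, without Ptprc or Cdh5, numbered 6 and 7 in the Apoe-/- libraries and 32, 58 and 60 in the others.

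Cartilage-like cells made up 0.245% (10 cells, Wilson 95% interval 0.133 to 0.451) and 0.138% (6 cells, 0.0634 to 0.301) of the 2 Apoe-/- libraries. The 3 libraries labelled Oasl1-/-Apoe-/- held 1.12% (38 cells, 0.814 to 1.53), 1.37% (44 cells, 1.02 to 1.83) and 1.49% (48 cells, 1.12 to 1.97). These intervals cover counting error only. The groups did not overlap, with means of 0.192% ± 0.0756 (SD, n = 2) and 1.32% ± 0.189 (SD, n = 3), a difference of 1.13 percentage points. A two-sided exact permutation test over libraries gave p = 0.1, the smallest p this design allows. Cells other than contractile smooth muscle numbered 1348 and 1383 in the Apoe-/- libraries and 1821, 1723 and 1748 in the others, and of these cells the cartilage-like share differed by 1.87 percentage points (means 0.588% and 2.46%). Of cartilage-like and Lum/Tnfrsf11b cells together (the latter defined by UMIs of both genes), they were 11.2% and 6.9% against 20.1%, 22.6% and 22.1%. Each of these differences had the same p = 0.1 in the exact test. When only cells with all 3 rule genes were counted, the difference was 0.384 percentage points with p = 0.2 in the same exact test. The groups did not overlap there either, at 0.123% and 0.0922% against 0.294%, 0.56% and 0.62%.

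**Figure D1:**
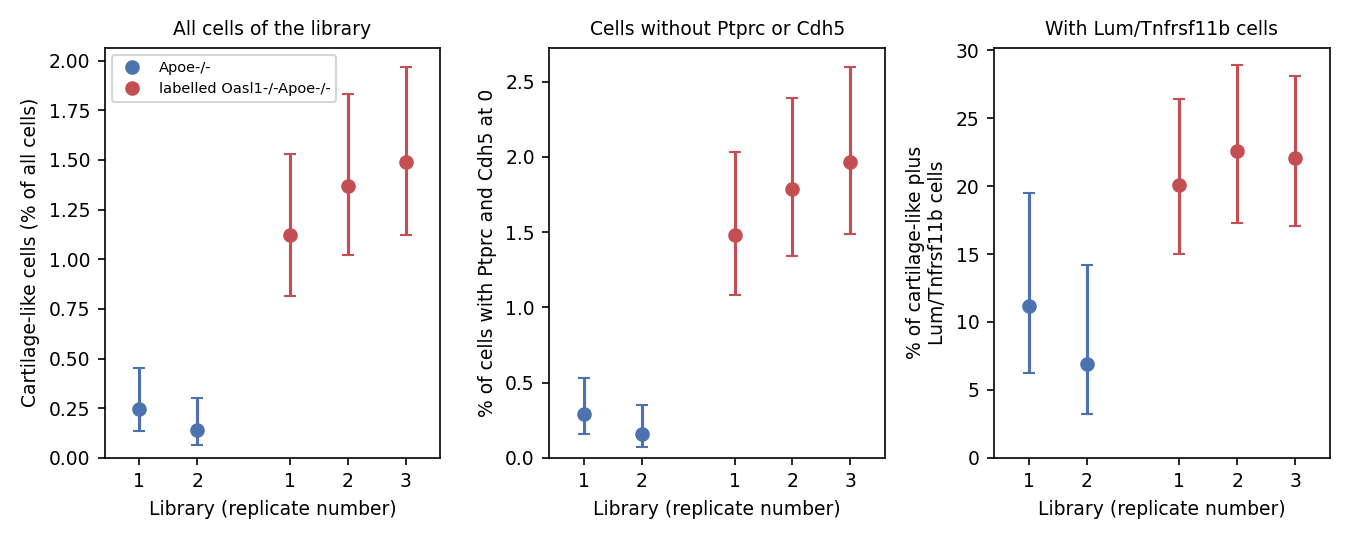
Cartilage-like cells in each of the 5 libraries (points, with Wilson 95% intervals for counting error), as a percent of all cells (left), of cells without Ptprc or Cdh5 (middle) and of cartilage-like plus Lum/Tnfrsf11b cells (right). In the left panel the 2 Apoe-/- libraries lie at 0.245% and 0.138% and the 3 libraries labelled Oasl1-/-Apoe-/- between 1.12% and 1.49%, and the groups do not overlap in any panel.

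With 10 and 6 cells, the Apoe-/- libraries were too small for gene tests, and the cells were compared with other cells of the same 3 libraries labelled Oasl1-/-Apoe-/-. For this, 3 classes outside the members served for comparison, each set by its own markers. Contractile smooth muscle cells had at least 2 of Myh11, Cnn1 and Lmod1 (10237 cells in all 5 libraries). Lum/Tnfrsf11b cells, a matrix-rich stromal population, had UMIs of both genes (631 cells). Adventitial fibroblasts had at least 2 of Pi16, Clec3b and Pdgfra (227 cells). The median depth of the 3 classes was 4931, 7769 and 3703 UMIs per cell. Neither these classes nor the cartilage-like cells were located within the tissue. Differences were taken as log2(mean CP10K + 0.05) per library and class and tested with limma, with Benjamini-Hochberg adjustment over all genes tested. The log2 scale with a pseudocount understates differences of low genes. Because 3 genes chose the cells, genes that vary together with them differ in part by construction, and the adjusted p states how closely the 3 libraries agreed. A gene near 0 in the comparison class entered the test through the cartilage-like cells alone, so the counts over tested list members are a description.

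Against contractile smooth muscle cells, 1304 of 9216 genes tested (14.1%) were higher in the cartilage-like cells and 2424 (26.3%) lower. Against Lum/Tnfrsf11b cells the counts were 558 (6.11%) and 1286 (14.1%) of 9135, and against adventitial fibroblasts 617 (6.59%) and 1233 (13.2%) of 9363. The median log2 difference over all genes tested was −0.23, −0.19 and −0.21, so list medians below are read against these values. List counts below are read against the shares of all genes called in the same comparison and direction. With each library and class centred on its median gene, the share of calls that were higher moved from 35% to 46.4%, from 30.3% to 46.6% and from 33.4% to 52.1%. With the mean of the deposited natural log values in place of mean CP10K, that share was 48.1%, 30.2% and 56.7%.

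Comp (cartilage oligomeric matrix protein, chromosome 8, 70373558 to 70382066, plus strand), a marker the rule did not use, was at 22.2, 21 and 24.4 CP10K in the cartilage-like cells of the 3 libraries. In Lum/Tnfrsf11b cells of the same libraries it was at 1.91, 2.81 and 1.47 CP10K. The classes did not overlap, and the log2 difference was 3.47 (SE 0.153, limma adjusted p = 5.6e-13), with 6.86 against smooth muscle cells and 3.27 against fibroblasts. In the Apoe-/- libraries the cartilage-like cells had Comp at 11.5 and 17 CP10K. A Comp UMI was found in 66.4% of the cells, against 0.905% of cells with a Ptprc UMI and 1% of those with a Cdh5 UMI.

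Of 27 genes listed for cartilage matrix, 25 were in the table. Against smooth muscle cells 20 of 22 tested were higher and 1 lower (median log2 difference 4.82), against Lum/Tnfrsf11b cells 19 of 22 were higher and 1 lower (3.58), and against fibroblasts 18 of 24 were higher and 3 lower (3.77). Col11a2 (chromosome 17, 34039437 to 34066685, plus strand), a type XI collagen chain that sits inside type II fibrils, was at 5.62, 6.9 and 6.91 CP10K in the cartilage-like cells and at 0.015, 0.0079 and 0.0599 in Lum/Tnfrsf11b cells. The classes did not overlap, and the log2 difference was 6.45 (SE 0.212, limma adjusted p = 1.4e-14). Col9a1, a type IX collagen chain that coats the same fibrils, was at 2.82, 4.01 and 3.25 CP10K, and 3 UMIs in total were found in Lum/Tnfrsf11b cells of these libraries and none in fibroblasts. It was at least 79.6-fold higher than in fibroblasts, taking 3 UMIs over that class as the floor. The other chains followed: the log2 differences from Lum/Tnfrsf11b cells were 5.46 for Col9a3, 4.85 for Col9a2 and 5.78 for Col11a1.

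Proteins that organise the collagen and aggrecan network also passed the test. Fmod (fibromodulin, a collagen-binding proteoglycan) was at 13.7, 14.6 and 14.7 CP10K against 0.903, 0.527 and 0.657 in Lum/Tnfrsf11b cells, a log2 difference of 4.30 (SE 0.149, limma adjusted p = 1.8e-14). Hapln1, the link protein that ties aggrecan to hyaluronan, was at 1.88, 2.07 and 2.74 CP10K and 4.94 higher on the log2 scale. Cnmd (chondromodulin, an inhibitor of vessel ingrowth into cartilage) was at 1.62, 1.72 and 2.3 CP10K in these libraries and without a UMI in the 16 cells of the Apoe-/- libraries. Ucma, a matrix protein of upper cartilage zones, and 3110079O15Rik, listed as a synonym of Snorc, a chondrocyte proteoglycan, were higher in all 3 comparisons as well (log2 differences from Lum/Tnfrsf11b cells 4.12 and 4.19). Some cartilage genes were not found: Cilp and Epyc had no UMI in any of the 146 cells, Matn1 had one in 1.37% of them, and Ogn (osteoglycin) was lower than in each of the other classes (log2 differences −3.34, −1.37 and −3.12). Prg4 (lubricin, of the joint surface) was at 1.52, 2.14 and 1.38 CP10K and did not pass the test against Lum/Tnfrsf11b cells (limma adjusted p = 0.68).

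A group of 15 genes was chosen by rule for the largest difference shared by all 3 comparisons: Col11a2, Scrg1, Col9a1, Col11a1, Ibsp, Col9a3, Cnmd, Col9a2, Hapln1, Col10a1, Ucma, Fam180a, Fzd9, Spink5 and 3110079O15Rik. Scrg1, a secreted protein known from chondrogenic differentiation, was at 1.56, 3.27 and 4.48 CP10K with no UMI in smooth muscle cells or fibroblasts of these libraries. Fzd9, a Wnt receptor, was at 2.24, 1.71 and 2.94 CP10K, and Fam180a at 3.73, 4.86 and 4.86. Spink5, a protease inhibitor, was at 0.804, 0.952 and 1.03 CP10K and had no UMI in cartilage-like cells of the Apoe-/- libraries.

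**Figure D2:**
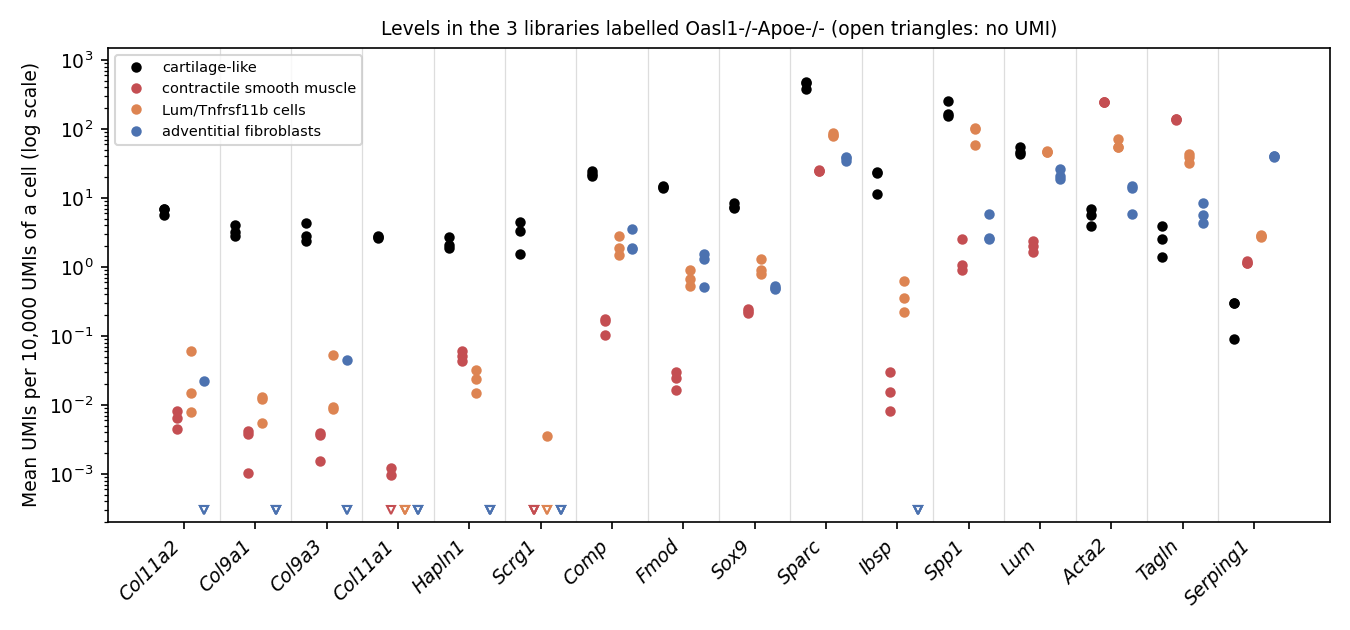
Mean level (CP10K, log axis) of named genes in cartilage-like cells and the 3 comparison classes of the libraries labelled Oasl1-/-Apoe-/-, 1 point per library, with open triangles at the bottom for libraries without a UMI. Cartilage-like cells lie above the other classes for Col11a2 (5.62 to 6.91) and below smooth muscle cells for Acta2 (3.85 to 6.94 against 244 to 248).

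To show the start regions of these 15 genes, RefSeq promoter windows were used (GRCm38.p6, 250 bases before to 50 after the RefSeq gene start, 300 in all, 1 window per gene). Both strands were searched for the SOX core motifs ACAAAG and ACAATG and for the TATA motif TATAAA, which do not overlap one another. Of the 15 genes 11 had a window. A SOX core occurred in 2 of them (Ibsp and Col10a1), and in 28.8% of all 27025 windows. TATAAA occurred in 3 (Ibsp, Col10a1 and Col11a2), and in 14.2% of all windows. The 3 windows with a TATA match are printed 5′ to 3′ with the matches in capitals. They belong to a type XI collagen gene and 2 genes of the hypertrophy and mineralisation list. Their positions are chr17:34038888-34039187, chr5:104299037-104299336 and chr10:34389731-34390030, all on the plus strand.
Col11a2: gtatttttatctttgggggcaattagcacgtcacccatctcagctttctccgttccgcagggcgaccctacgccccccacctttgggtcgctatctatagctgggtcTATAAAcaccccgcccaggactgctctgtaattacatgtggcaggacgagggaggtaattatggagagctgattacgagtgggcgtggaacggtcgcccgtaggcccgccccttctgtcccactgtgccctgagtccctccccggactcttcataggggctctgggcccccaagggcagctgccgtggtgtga
Ibsp: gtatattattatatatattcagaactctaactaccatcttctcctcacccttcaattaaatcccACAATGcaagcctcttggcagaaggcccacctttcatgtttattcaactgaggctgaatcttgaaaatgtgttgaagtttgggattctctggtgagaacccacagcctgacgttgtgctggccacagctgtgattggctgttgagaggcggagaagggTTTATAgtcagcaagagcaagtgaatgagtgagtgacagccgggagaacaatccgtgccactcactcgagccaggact
Col10a1: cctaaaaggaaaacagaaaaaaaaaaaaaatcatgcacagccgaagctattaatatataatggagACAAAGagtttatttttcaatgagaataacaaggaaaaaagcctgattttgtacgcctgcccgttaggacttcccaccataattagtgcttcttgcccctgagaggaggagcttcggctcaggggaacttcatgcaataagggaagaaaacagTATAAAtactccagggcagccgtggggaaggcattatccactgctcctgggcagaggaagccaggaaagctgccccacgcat
The TATA match began at −28 in Ibsp (on the opposite strand), −32 in Col10a1 and −143 in Col11a2, and the SOX core at −186 (ACAATG) in Ibsp and −185 (ACAAAG) in Col10a1, counted from the RefSeq start. RefSeq places these starts at 34039138 (Col11a2), 104299287 (Ibsp) and 34389981 (Col10a1), while the gene positions printed elsewhere are from GENCODE M21, whose starts are 34039437, 104299171 and 34389981. A letter match describes the window and is not evidence of a bound site.

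Sox9 (chromosome 11, 112782224 to 112787760, plus strand), the master regulator of chondrocytes, was at 7.43, 7.1 and 8.46 CP10K in the cartilage-like cells, at 1.32, 0.779 and 0.898 in Lum/Tnfrsf11b cells and at 0.247, 0.215 and 0.232 in smooth muscle cells. Cartilage-like cells of the Apoe-/- libraries had 3.08 and 5.12. The log2 difference was 2.91 from Lum/Tnfrsf11b cells (SE 0.15, limma adjusted p = 5.7e-12) and 4.77 from smooth muscle cells. A Sox9 UMI was found in 88.4% of the cartilage-like cells and in 0.905% of cells with a Ptprc UMI and 3.55% of those with a Cdh5 UMI. Its partners Sox5 and Sox6 were higher in all 3 comparisons too, by 1.25 and 2.15 on the log2 scale from Lum/Tnfrsf11b cells. Of 11 chondrogenic regulators tested against smooth muscle cells 8 were higher and 2 lower, against Lum/Tnfrsf11b cells 6 and 1 of 11, and against fibroblasts 7 and 2 of 12. Trps1, a repressor of chondrocyte maturation, and Runx1 were among those higher in every comparison (log2 differences from Lum/Tnfrsf11b cells 1.72 and 0.96). Foxa3, a factor of hypertrophic chondrocytes, was at 0.27, 0.256 and 0.346 CP10K. Runx2, the regulator of hypertrophy and bone, was found in 6.85% of the cells. It passed the test against smooth muscle cells (1.26, limma adjusted p = 0.012) and not against Lum/Tnfrsf11b cells (−0.04, adjusted p = 0.96) or fibroblasts (0.86, adjusted p = 0.37).

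Genes that make and sulfate proteoglycan chains were higher or not past the test, and none was lower: 9 of 13 were higher against smooth muscle cells (median log2 difference 1.14), 7 of 13 against Lum/Tnfrsf11b cells (0.77) and 7 of 14 against fibroblasts (1.18). Papss2, which makes the sulfate donor, was at 1.79, 2.21 and 1.88 CP10K against 0.2 on average in Lum/Tnfrsf11b cells (log2 difference 3.01, limma adjusted p = 4.2e-10). Xylt1, which starts the sugar chain on the core protein, was at 2.16, 2.23 and 2.25 CP10K (3.68 on the log2 scale against Lum/Tnfrsf11b cells). Slc26a2, the sulfate importer, and Chst11, a chondroitin sulfotransferase, were higher in all 3 comparisons. The paralog Xylt2 was found in 6.85% of the cells and passed no test (limma adjusted p = 0.43, 0.5 and 0.44).

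Most tested genes of hypertrophic cartilage and mineral deposition were higher as well. Of 16 hypertrophy and mineralisation genes tested against smooth muscle cells 14 were higher and 1 (Ihh) lower (median log2 difference 2.40). Against Lum/Tnfrsf11b cells 11 were higher and 1 (Mgp) lower of 16 (1.33), while Mmp13, Dlx5, Slc20a2 and Vegfa did not pass. Against fibroblasts 12 of 15 were higher with none lower (2.46). Ibsp (bone sialoprotein, which nucleates mineral, chromosome 5, 104299171 to 104311469, plus strand) was at 11.5, 24.1 and 23.3 CP10K in the cartilage-like cells and at 0.357, 0.22 and 0.625 in Lum/Tnfrsf11b cells, a log2 difference of 5.47 (SE 0.208, limma adjusted p = 7.8e-14). It was at least 465-fold higher than in fibroblasts, where no UMI was found. The gene was uneven: 32.9% of the cells had a UMI, and the 5 highest cells held 45.7% of all Ibsp UMIs. In the Apoe-/- libraries its level was 58.1 and 76.8 CP10K, above each of the other libraries, with 10 and 6 cells behind these values and no test.

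Spp1 (osteopontin) was at 156, 251 and 163 CP10K and 1.14 higher on the log2 scale than in Lum/Tnfrsf11b cells, which themselves held 58 to 104. Sparc (osteonectin, a collagen and calcium-binding matrix protein) was at 378, 477 and 460 CP10K against 80.8, 77.8 and 87.2, a difference of 2.41 (SE 0.0979, limma adjusted p = 2e-13), and it was found in all 146 cells. Col10a1, the collagen of hypertrophic chondrocytes, varied widely between libraries, at 0.335, 5.28 and 3.24 CP10K, and 5 cells held 91.7% of its UMIs. The classes did not overlap (log2 difference from Lum/Tnfrsf11b cells 4.39, SE 0.558), but the level rests on few cells. Of bone cell genes, Bglap (osteocalcin) had no UMI in the 146 cells and Dmp1 had one in 0.685% of them. Sp7 (osterix, a regulator of bone formation) was in 15.8% of the cells, at 0.122, 0.333 and 0.267 CP10K.

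Regulators of mineral deposition did not all point the same way. Alpl, the phosphatase that frees phosphate, was higher than in Lum/Tnfrsf11b cells by 2.41 on the log2 scale, and so were Enpp1 and Ank, which supply the mineralisation inhibitor pyrophosphate, by 1.53 and 0.98. Mgp (matrix Gla protein, an inhibitor of arterial calcification) was at 162, 201 and 123 CP10K, higher than in smooth muscle cells (1.14) but lower than in Lum/Tnfrsf11b cells (398 CP10K ± 19.6, SD, n = 3 libraries, log2 difference −1.32, SE 0.105, limma adjusted p = 5.2e-09). Against fibroblasts Mgp did not pass the test (adjusted p = 0.53).

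**Figure D3:**
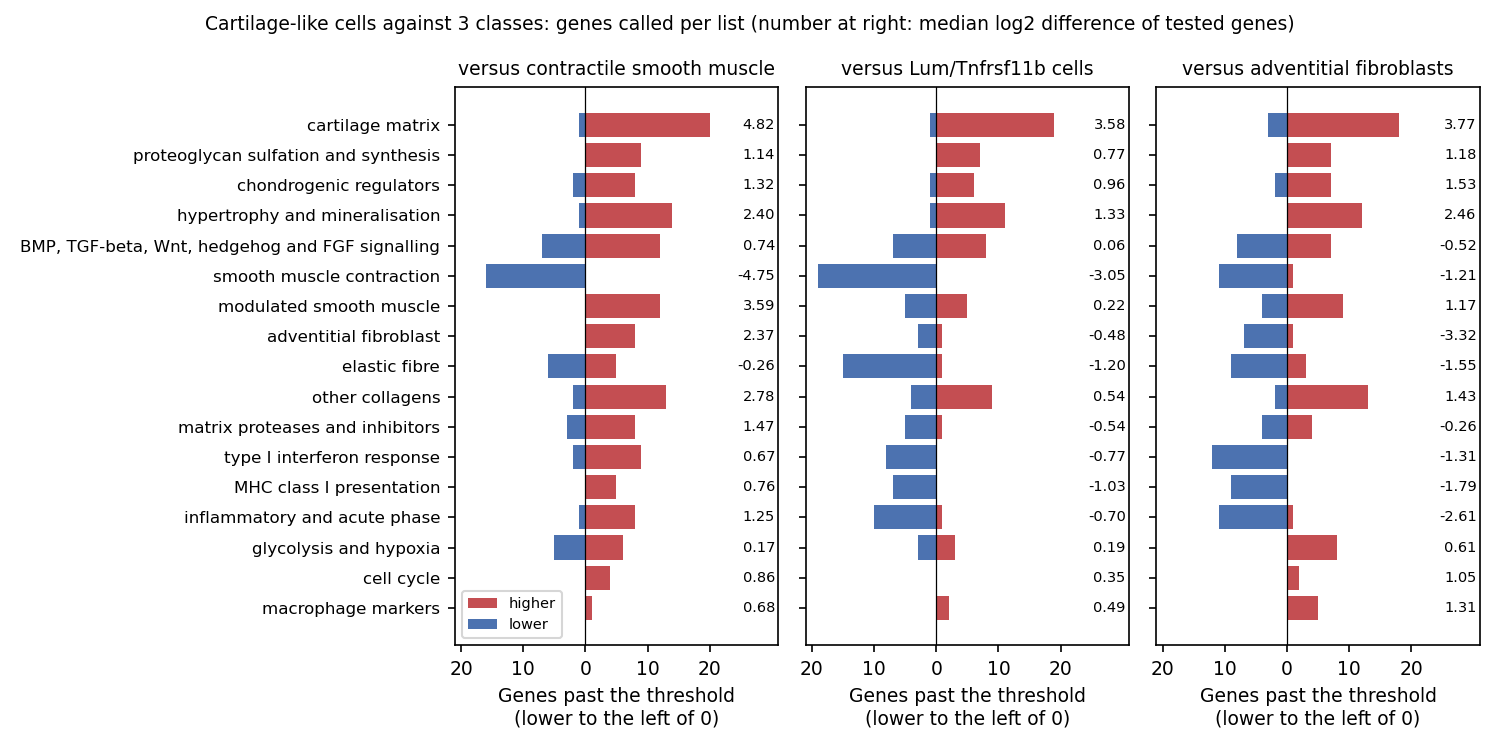
Number of genes of each list that passed the test (limma adjusted p under 0.05), higher in cartilage-like cells to the right of 0 and lower to the left, in the 3 comparisons, with the median log2 difference of the tested genes at the right edge. The cartilage matrix list had 20, 19 and 18 genes higher and the contraction list 16, 19 and 11 lower.

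Signalling genes were divided. Of 24 BMP, TGF-beta, Wnt, hedgehog and FGF genes tested against smooth muscle cells 12 were higher and 7 lower. Against Lum/Tnfrsf11b cells 8 were higher and 7 lower of 25, and against fibroblasts 7 and 8 of 26. Over all genes tested, 14.1% were higher and 26.3% lower against smooth muscle cells. These shares were 6.11% and 14.1% against Lum/Tnfrsf11b cells and 6.59% and 13.2% against fibroblasts. Frzb, a secreted Wnt inhibitor of joint cartilage, was at 15.3, 15.8 and 12.7 CP10K against 5.38, 4.56 and 4.67 in Lum/Tnfrsf11b cells (log2 difference 1.57, limma adjusted p = 1.5e-09), while another Wnt inhibitor, Sfrp2, was lower (−3.93). Bmp2, a chondrogenic and osteogenic ligand, was higher in all 3 comparisons (1.48, 1.53 and 2.28). Gdf5, a joint-forming ligand, was found in 10 cells (6.85%), at 0.0661, 0.157 and 0.108 CP10K. Tgfb2 was lower than in smooth muscle and Lum/Tnfrsf11b cells (−1.23 and −1.55). Fgfr3, the receptor that restrains chondrocyte growth and that was listed with the hypertrophy genes, was at 0.833, 1.36 and 0.864 CP10K and higher in all 3 comparisons (3.72, 3.39 and 4.03).

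The contractile apparatus of smooth muscle was at low levels. Acta2 (smooth muscle actin) was at 6.94, 3.85 and 5.68 CP10K in the cartilage-like cells, at 71.6, 54.8 and 54.7 in Lum/Tnfrsf11b cells and at 246, 248 and 244 in smooth muscle cells. The classes did not overlap, and Acta2 was lower by 3.48 and 5.51 on the log2 scale (SE 0.114 and 0.124, limma adjusted p = 1.4e-14 and 6.9e-13). Tagln (transgelin) was at 3.97, 1.4 and 2.57 CP10K, with log2 differences of −5.79 and −3.94. Of 17 contraction genes tested against smooth muscle cells 16 were lower and none higher (median −4.75), against Lum/Tnfrsf11b cells 19 of 20 were lower (−3.05), and against fibroblasts 11 of 17 were lower and 1 was higher (−1.21). Summed over the list, the cartilage-like cells held 31.2 to 43 CP10K and smooth muscle cells 782 to 788. The list shares Myh11, Cnn1 and Lmod1 with the smooth muscle rule, and these were left out of that test. Of all Acta2 UMIs of the 146 cells, 5 cells held 60.4%. Among all genes whose libraries did not overlap, Sost (sclerostin, a Wnt inhibitor) had the lowest log2 difference from smooth muscle cells, at −6.69, with 14.4 CP10K ± 0.596 (SD, n = 3) there and 0.0958 ± 0.0556 here.

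Genes of matrix-rich stromal cells were shared with the Lum/Tnfrsf11b class in part. Lum (lumican) was at 54.1, 42.6 and 46 CP10K and Tnfrsf11b (osteoprotegerin) at 6.09, 4.81 and 4.75, beside means of 47.1 and 5.28 in the class those genes define. Of 11 further modulated smooth muscle genes tested there, 5 were higher and 5 lower. Col1a1 (type I collagen) was at 111, 94.8 and 109 CP10K, higher by 1.23 (limma adjusted p = 3.7e-09), and Lgals3 (galectin-3) by 0.75. Vcam1, a leukocyte adhesion molecule, was at 2.76, 2.28 and 2.71 CP10K and lower by 2.86 (SE 0.12, adjusted p = 2.7e-13), and Ly6a was lower by 2.05. In the 2 other comparisons 12 of 13 were higher and none lower against smooth muscle cells, and 9 higher and 4 lower of 13 against fibroblasts.

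Type VI collagen, a pericellular collagen that surrounds chondrocytes, was higher in all 3 comparisons for Col6a1 (17.6, 18.6 and 17 CP10K, log2 differences 3.35, 2.18 and 2.48), Col6a2 and Col6a3. Of the collagens outside the cartilage list 13 of 16 were higher against smooth muscle cells, 9 of 17 against Lum/Tnfrsf11b cells and 13 of 17 against fibroblasts, with 2, 4 and 2 lower. Col4a1, of basement membranes, was among the lower ones in all 3 (−1.74, −1.86 and −1.11). Elastic fibre genes went the other way relative to Lum/Tnfrsf11b cells: 15 of 16 were lower and 1 higher (median −1.20). Mfap4, which binds elastic fibres, was at 0.19, 0.021 and 0.0577 CP10K against a mean of 1.87, a log2 difference of −3.95 (SE 0.247, limma adjusted p = 1.4e-10). The exception was Emilin1 (0.69). Against smooth muscle cells the list split, with 5 higher and 6 lower of 16, beside 14.1% higher and 26.3% lower over all genes tested. Against fibroblasts 3 were higher and 9 lower of 16, beside 6.59% and 13.2%.

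Proteases and their inhibitors followed the comparison class: 8 of 12 were higher and 3 lower against smooth muscle cells, 1 and 5 of 12 against Lum/Tnfrsf11b cells, and 4 and 4 of 13 against fibroblasts. Mmp2 (gelatinase A) was the one higher than in Lum/Tnfrsf11b cells (0.88) and passed in the other comparisons too. Of 19 glycolysis and hypoxia genes tested against Lum/Tnfrsf11b cells 3 were higher and 3 lower, and Ldha (lactate dehydrogenase) stood at 0.01 (limma adjusted p = 0.98). They were 6 higher and 5 lower of 19 against smooth muscle cells and 8 higher with none lower of 19 against fibroblasts. Beside both lists, 14.1% of all genes tested were higher and 26.3% lower against smooth muscle cells. The same shares were 6.11% and 14.1% against Lum/Tnfrsf11b cells and 6.59% and 13.2% against fibroblasts. Hif1a, the hypoxia factor on which growth plate chondrocytes depend, was at 1.89, 2.33 and 2.1 CP10K and passed in all 3 (1.23, 0.48 and 1.57).

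MHC class I presentation genes were lower than in Lum/Tnfrsf11b cells and fibroblasts for most genes tested, and part of them were higher than in smooth muscle cells. B2m (the MHC class I light chain) was at 27.3, 28.4 and 23.6 CP10K, lower than in Lum/Tnfrsf11b cells by 0.93 (50.5 ± 5.81, SD, n = 3 libraries, limma adjusted p = 1.1e-06) and than in fibroblasts by 1.27. Of 10 MHC class I presentation genes 7 were lower than in Lum/Tnfrsf11b cells and 9 than in fibroblasts, with none higher in either. Against smooth muscle cells 5 of 10 were higher and none lower. Type I interferon response genes were lower for 8 of 18 against Lum/Tnfrsf11b cells and 12 of 18 against fibroblasts, with none higher, and against smooth muscle cells 9 of 16 were higher and 2 lower (median 0.67; with every cell thinned to 1000 UMIs 1 was higher and 2 lower of 17, with a median of −0.17 beside −0.50 over all genes). Summed over the MHC class I list, the cartilage-like cells held 33.7 to 41.4 CP10K in the libraries labelled Oasl1-/-Apoe-/- and 12.6 and 13.3 in the Apoe-/- libraries. That sum was 20.4 to 20.7 against 11.5 and 13.3 in smooth muscle cells, 67.6 to 83.8 against 26 and 26.3 in Lum/Tnfrsf11b cells and 101 to 121 against 35.5 and 37.4 in fibroblasts, so the library groups did not overlap in any class. These between-group values were not tested.

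Inflammatory genes were lower for 10 of 14 against Lum/Tnfrsf11b cells and 11 of 13 against fibroblasts, with 1 higher in each case (Lcn2), and higher for 8 of 12 with 1 lower against smooth muscle cells. Cxcl12, a chemokine of perivascular stroma, was at 0.848, 0.199 and 0.281 CP10K and lower in all 3 comparisons (−1.26, −3.38 and −4.81). In Apoe-/- replicate 2 the 6 cells held Saa3 (serum amyloid A3) at 116 CP10K and Chil1 (the chitinase-like cartilage glycoprotein) at 143, where the 10 cells of replicate 1 held 0 and 6.5. The 5 highest of the 146 cells held all Saa3 UMIs and 94.8% of those of Chil1.

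Against adventitial fibroblasts, 7 of 8 further adventitial marker genes were lower and 1 (Lum) was higher, with a median of −3.32. Dpt (dermatopontin) was lower by 5.44 on the log2 scale and Gsn (gelsolin) by 3.23, and Dpep1 had no UMI in the 146 cells against 6.03 CP10K in fibroblasts. Dcn (decorin) was found at 92.5, 109 and 88 CP10K, between Lum/Tnfrsf11b cells (65.2) and fibroblasts (174), and differed from both (0.56 and −0.85). All 8 genes tested against smooth muscle cells were higher, and against Lum/Tnfrsf11b cells 1 of 8 was higher and 3 were lower.

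Markers of other cell types were looked at as whole lists. Endothelial Kdr and Cldn5 had no UMI in the 146 cells, and the endothelial list summed to 2.11 to 2.92 CP10K, against 2.72 to 3.02 in smooth muscle cells, 1.65 to 2.69 in Lum/Tnfrsf11b cells and 0.463 to 0.942 in fibroblasts. Pecam1 was lower in all 3 comparisons (−1.26, −1.74 and −1.43), and Fabp4 (a fatty acid binding protein) was higher than in fibroblasts (2.76) and did not pass the test in the other 2. Macrophage markers, none of them at 0, summed to 2.6 CP10K in the lowest, 5.61 in the median and 14.4 in the highest library in cartilage-like cells, against 3.31 to 4.75 in smooth muscle cells, 4.21 to 6.74 in Lum/Tnfrsf11b cells and 1.51 to 5.77 in fibroblasts. C1qb (a complement component made by macrophages) was at 0.63, 3.05 and 0.703 CP10K, highest in replicate 2. Of these genes 1 of 7 (C1qb) was called higher against smooth muscle cells and 2 of 8 (C1qa and C1qb) against Lum/Tnfrsf11b cells. Against fibroblasts 5 of 7 were (these with C1qc, Lyz2 and Tyrobp). Over all genes tested, 14.1%, 6.11% and 6.59% were higher in these comparisons. The part of the macrophage genes in the other results was not tested. In cells with all 3 rule genes (10, 18 and 20 in the 3 libraries) the C1qb difference from smooth muscle cells was −1.02, the opposite sign. Red cell markers summed to 0.447 to 0.779 CP10K, against 1.85 to 14.1 in smooth muscle cells, 0.418 to 0.499 in Lum/Tnfrsf11b cells and 0.395 to 0.56 in fibroblasts. Of the Schwann cell list Mbp had no UMI and S100b, which chondrocytes also express, was in 50% of the cells and higher in all 3 comparisons (4.77, 2.11 and 2.95). Of the tendon and osteoblast list Tnmd and Bglap had no UMI. Scx (scleraxis, a tendon regulator) was higher than in smooth muscle cells (1.27) and fibroblasts (2.67), and did not pass the test against Lum/Tnfrsf11b cells (−0.46, limma adjusted p = 0.11). Of the cell cycle genes 4 of 8 were higher than in smooth muscle cells (Cdk1, Birc5, Tpx2 and Cenpa) and 2 of 6 than in fibroblasts (Cdk1 and Cenpa), with none lower, and none of 10 passed the limma test against Lum/Tnfrsf11b cells. UMIs of at least 3 of the 12 listed genes were found in 9 of the 146 cells, and 104 cells had none of the 12. Cdk1, Birc5, Tpx2 and Cenpa had 19, 18, 10 and 49 UMIs in the cartilage-like cells of the libraries tested.

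Cytl1 and 1500015O10Rik were among the genes with the largest difference from smooth muscle cells. 1500015O10Rik, listed as a synonym of Ecrg4, was at 46.5, 48.1 and 44.1 CP10K against 4.82, 3.82 and 2.74 in Lum/Tnfrsf11b cells (log2 difference 3.62, SE 0.123, limma adjusted p = 1.6e-14). Cytl1, a secreted protein of cartilage, was at 28.1, 59 and 68 CP10K and 2.27 higher, and at 281 and 244 CP10K in the Apoe-/- libraries. It is not specific to these cells in this tissue, since 88.6% of cells with a Cdh5 UMI had one of Cytl1.

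The cells were next compared with one another without the rule genes. With 2000 variable genes, the 5 rule genes left out, and 12 principal components, each cell was given its 20 nearest neighbours among all cells. At least 10 of the 20 were cartilage-like for 104 of the 146 cells, and 10 cells had no such neighbour. Over the 146 cells 68.4% of neighbours were cartilage-like, 18.5% were Lum/Tnfrsf11b cells, 2.36% smooth muscle cells, 0.753% fibroblasts and 10% other cells. Of the cells with at least 10 rule gene UMIs 100 of 121 had at least 10 cartilage-like neighbours, and of the 25 with fewer UMIs 4 did. Conversely, 14 cells outside the rule had at least 10 cartilage-like neighbours, 12 with a single rule gene and 2 with a Ptprc or Cdh5 UMI.

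Within the 130 cells of the libraries labelled Oasl1-/-Apoe-/-, many but not all cartilage genes varied with Col2a1. Of 20 genes of the cartilage matrix list with a value, 15 had a rank correlation of at least 0.3 with it, and 5 (Prelp, Cilp2, Prg4, Chil1 and Ogn) lay within 0.15 of 0. Col2a1 chose the cells, and the rank correlations over cells, which share libraries, are a description. With Col2a1, Spearman's rho was 0.74 for Col9a1, 0.73 for Col11a2, 0.71 for Sparc, 0.63 for Fmod and 0.48 for Sox9, and 0.01 for the number of UMIs per cell. In the single libraries rho lay between 0.72 and 0.74 for Col9a1 and between 0.44 and 0.48 for Sox9. It was −0.63 for Ifitm3, an interferon-induced membrane protein, −0.60 for Lgals1 (galectin-1), −0.48 for Ly6a and −0.44 for Acta2. The single libraries spread widely for Acta2 (−0.72, −0.13 and −0.45) and for Comp (0.64, 0.26 and 0.34).

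Divided by Col2a1 level within each library into bins of 44, 44 and 42 cells, the cells had a median depth of 8306, 8222.5 and 8686 UMIs. Ibsp averaged 0.0809, 14.1 and 45.6 CP10K from the lowest to the highest bin. Acta2 ran the opposite way, at 13.4, 2.03 and 0.858 CP10K, with medians over cells of 3.29, 1.12 and 0.54. In the lowest bin 4 cells held 68.1% of it, and without the 4 highest cells of each bin the means were 4.79, 1.17 and 0.571. The same order of means was found for elastin (Eln), at 19.7, 8.91 and 2.29. Sparc averaged 217, 406 and 706 CP10K, whereas Lum stayed at 54.6 and 58.2 in the lower bins and was 29.1 in the highest. The lowest bin thus held the most Acta2 and Eln and the least Ibsp and Sparc. Macrophage genes were highest there too, with C1qb at 3.48, 0.533 and 0.303 CP10K and Lyz2 at 2.15, 0.688 and 0.395. Members with under 10 rule gene UMIs (7, 8 and 6 in the 3 libraries) were not left out of the bins. Their part in this order was not tested. The means of the cell cycle genes called against smooth muscle cells were also highest in the lowest bin, with few UMIs and a wide spread between libraries. There Cdk1 ran from 0.101 to 0.608 CP10K over the libraries and Cenpa from 0.122 to 2.83. Birc5 ran from 0.0972 to 0.831 and Tpx2 from 0.0528 to 0.252. Cdk1 averaged 0.312, 0.0579 and 0.0637 CP10K from the lowest to the highest bin, and Cenpa 1.05, 0 and 0.265. Birc5 averaged 0.388, 0.0347 and 0.0252 CP10K and Tpx2 0.179, 0.0366 and 0.0252.

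**Figure D4:**
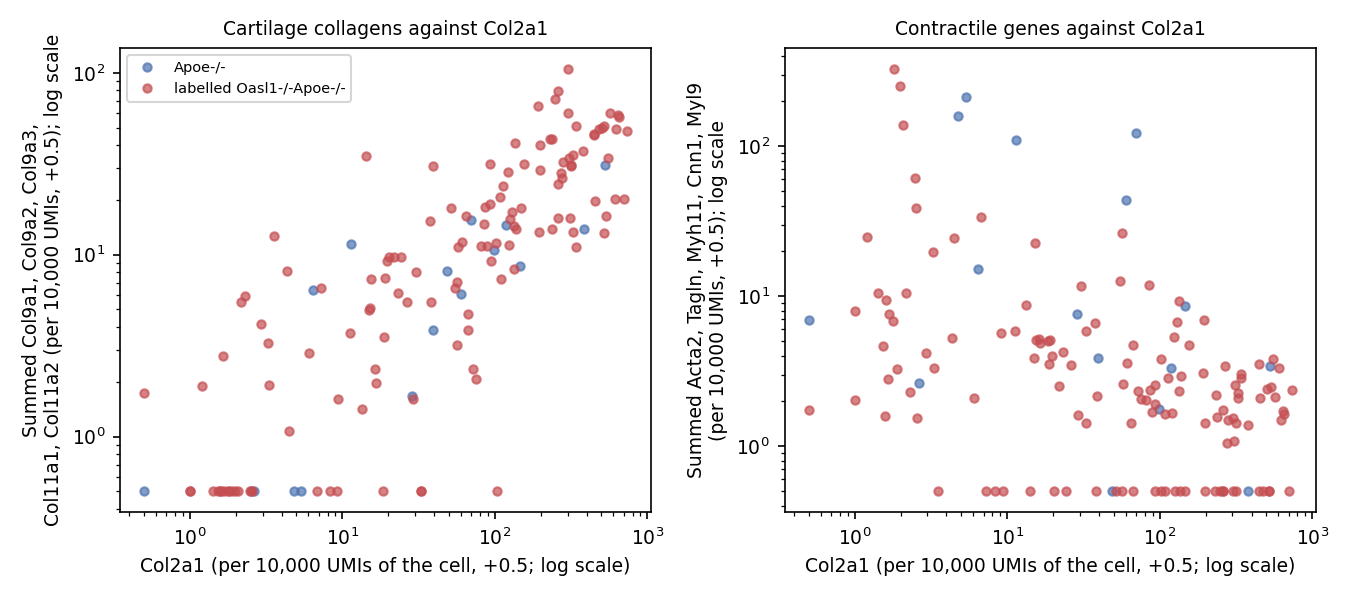
Each of the 146 cartilage-like cells by its Col2a1 level and the summed level of 5 type IX and XI collagen genes (left) or of Acta2, Tagln, Myh11, Cnn1 and Myl9 (right), all in CP10K plus 0.5 on log axes and coloured by library group. Cells with more Col2a1 hold more of the collagens and less contractile RNA, with a Spearman's rho of 0.74 for Col9a1 and −0.44 for Acta2 (−0.72, −0.13 and −0.45 in the single libraries) in the 130 cells of the libraries labelled Oasl1-/-Apoe-/-.

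**Figure D5:**
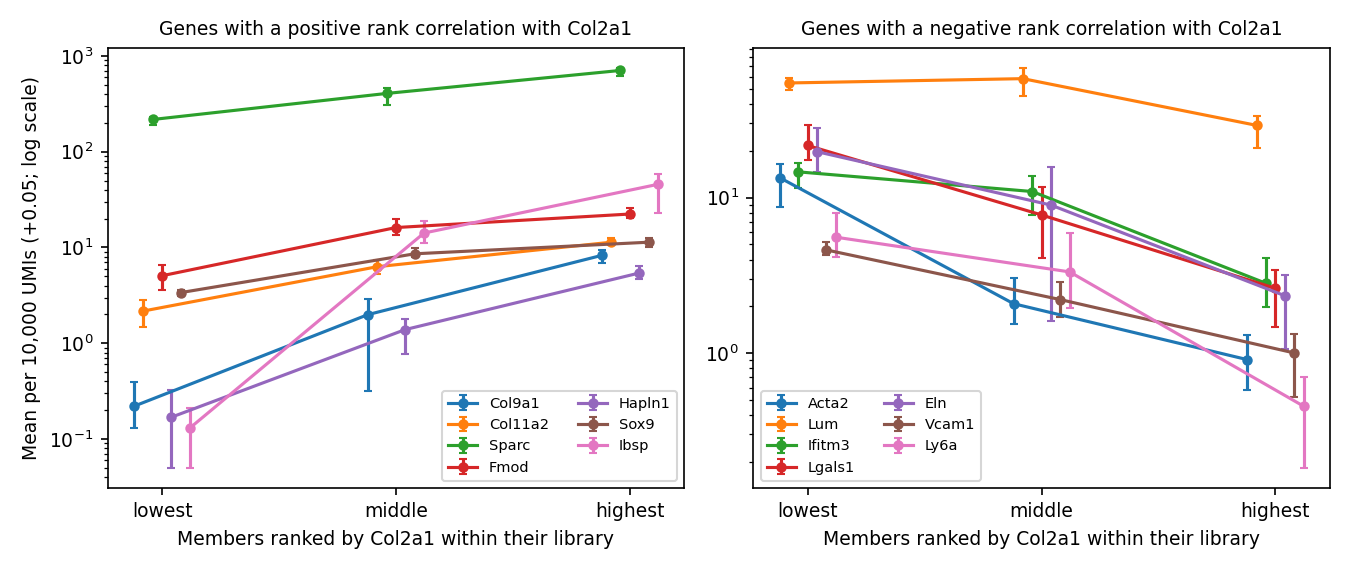
Mean level (CP10K plus 0.05, log axis) of named genes in the bins of lowest, middle and highest Col2a1 within each library labelled Oasl1-/-Apoe-/-, with bars from the lowest to the highest library. Ibsp runs from 0.0809 to 45.6 CP10K and Sparc from 217 to 706, while Acta2 runs from 13.4 (4.79 without its 4 highest cells) down to 0.858.

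Pairs of genes were counted in the same cells. Chad helped to choose the cells, and every member without it has Col2a1 and Acan, so its pairing is a description. An Ibsp UMI was present in 59.7% of the 62 cells with Chad and in 13.1% of the 84 without it (median depth 7961 and 8601.5 UMIs). Alpl was present in 39.6% of the 48 cells with Ibsp and in 1.02% of the 98 without (8353.5 and 8018 UMIs). Spp1 was found in all 48 and in 90.8% of the 98. The cartilage gene Cnmd paired with Col9a1, which had a UMI in 80.6% of the 36 cells with Cnmd and in 31.8% of the 110 without it. Cells are not replicates of a condition, and these shares describe which genes occurred together in the pooled 146 cells.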

How the data were processed

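Enzymatically released, live-sorted aortic cells of 5 libraries had been sequenced with a 10x 3′ kit. The authors aligned reads to mm10 and counted UMIs with Cell Ranger 3.1.0, then filtered cells and normalised with Seurat 4.0.3. Their tables of 18260 cells and 16498 genes were deposited on a natural log scale, as ln(1 + CP10K), where CP10K is UMIs per 10000 UMIs of a cell. The lowest number of genes in a cell was 201, and mitochondrial UMIs reached 9.99%. The authors had removed doublets with DoubletFinder, no further doublet call was made, and their cell annotation was not used here.

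UMI counts were recovered by inverting the log, and 100% of values were whole within 0.01. Groups were taken from the labels. Shares of cells were compared by a two-sided exact permutation test over libraries. Genes were compared between cell classes within the 3 libraries that held at least 20 cartilage-like cells, as log2(mean CP10K + 0.05) per library and class, with genes of a mean of at least 0.05 CP10K, in limma 3.58.1 (R 4.3.3) with the library as a block, Benjamini-Hochberg adjustment and a threshold of 0.05. Genes used by either class rule were left out of that test. The scripts were tested on simulated data. Folds against classes without a UMI used a floor of 3 UMIs over the class. Other steps used Python 3.11.15, numpy 2.4.6, pandas 2.3.3, scipy 1.17.1, scikit-learn 1.9.0 and matplotlib 3.10.9.

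Named genes were the rule genes, Comp, members of gene lists, the 10 genes with the largest difference in each direction per comparison among those past the threshold whose libraries did not overlap, the 15 shared by all 3 comparisons with the largest least difference, and Oasl1 and Apoe. The members and lists were chosen with earlier results of these data known. Alternatives changed the rule, denominator, libraries, depth, pseudocount, filter, scaling and block. 1 gene of a marker list is not reported here.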

Additional observations from a re-analysis of the deposited data

How the results depend on the processing

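The share difference of 1.13 percentage points kept its sign under every alternative run. As a share of all cells it ran from 0.384 (all 3 rule genes) to 1.24 (without Oasl1-/-Apoe-/- replicate 1). Other denominators give values on another scale: 1.52 of cells with Ptprc and Cdh5 at 0 and 1.87 of cells other than contractile smooth muscle. Of cartilage-like and Lum/Tnfrsf11b cells, a denominator chosen after seeing the data, it was 12.5. Leaving out 1 library gave 1.05 to 1.24, with p = 0.25 or 0.333 in the exact permutation test, the smallest then possible. The groups share replicate numbers 1 and 2, which the labels do not tie to a common source, and the replicate block, a paired difference over these numbers, gave 1.05.

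The counts of genes called moved under several alternatives, and the cause was not tested. Cells carrying all 3 rule genes numbered 10, 18 and 20 in the 3 libraries, in part under the minimum of 20 cells. With only these cells, 584 genes were higher and 1471 lower than in smooth muscle cells, and 317 and 344 were higher than in Lum/Tnfrsf11b cells and fibroblasts. The alternative with all 5 libraries set aside the minimum of 20 cells, since the Apoe-/- libraries held 10 and 6 cartilage-like cells. Its calls are therefore a description only. There the counts were 695 higher against smooth muscle cells, 218 higher and 666 lower against Lum/Tnfrsf11b cells, and 304 and 774 against fibroblasts. With every cell thinned to 1000 UMIs they were 318 and 1141, 121 and 206, and 51 and 79. The mean of the deposited log values gave 1104 higher against fibroblasts. Median centring, chosen after seeing the data, gave 829 lower against fibroblasts. Leaving out 1 library gave 1134 to 1204 higher and 1867 to 2194 lower against smooth muscle cells, 434 to 504 and 872 to 1116 against Lum/Tnfrsf11b cells, and 377 to 535 and 785 to 1093 against fibroblasts, the lowest of the last pair without Oasl1-/-Apoe-/- replicate 3.

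Of 244 called values of genes named in the text, 217 remained called in the same direction with all 3 rule genes, 18 were no longer called and 9 changed sign. Of 247, thinning kept 146 and changed the sign of 2. With all 5 libraries, of which the Apoe-/- ones lay under the minimum number of cells, 198 of 243 were kept and 4 changed sign. With all 3 rule genes the log2 differences that changed sign were C1qb −1.02 against smooth muscle cells, C1qa −0.46 and C1qb −0.91 against Lum/Tnfrsf11b cells, and Eln −1.13, Cenpa −0.80, Lyz2 −0.04, C1qa −0.03, C1qc −0.65 and Tyrobp −0.28 against fibroblasts. With all 5 libraries they were C1qb −0.20 against smooth muscle cells, Lcn2 −0.08 against Lum/Tnfrsf11b cells, and Eln −0.15 and C1qa −0.11 against fibroblasts. Thinned to 1000 UMIs they were Dpt 0.20 against Lum/Tnfrsf11b cells and Myh11 0.22 against fibroblasts.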
